A study of Mus musculus with 6 samples.

Results

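The endocardium is the endothelium that lines the inside of the heart. In the single-cell RNA data of the mouse cardiogenic region at E10.5 (embryonic day), endocardial cells were taken as cells with endothelial RNA that also carried RNA of Nfatc1 or Npr3. Molecules were counted as unique molecular identifiers (UMIs), tags that let amplified copies be counted once. Cells with fewer than 2500 genes detected, or with more than 10% of UMIs from mitochondrial genes, were left out first. A remaining cell was called endothelial when at least 4 of 6 genes (Pecam1, Cdh5, Kdr, Emcn, Egfl7 and Esam) had at least 2 UMIs each, and endocardial when its Nfatc1 and Npr3 UMIs also summed to at least 4. This gave 1495 endocardial cells among 2029 endothelial cells and 35962 retained cells, out of 53362 deposited barcodes. The 534 endothelial cells with a sum below 4 are called other endothelial cells here, and the remaining 33933 retained cells non-endothelial cells.

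Nfatc1 encodes a calcium-regulated transcription factor that is best known in the heart for marking endocardium and for its part in valve formation. Npr3 encodes the natriuretic peptide clearance receptor, which is carried by endocardial cells of the embryo. Endocardium signals to the heart muscle through neuregulin and other secreted factors. In the atrioventricular canal and the outflow tract, endocardial cells respond to BMP, TGF-beta and Notch signals, and some of them turn into the mesenchyme of the cushions from which valves form.

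The study asks how maternal diabetes affects development of the heart and pharynx. All embryos were C57BL/6 and wild type, from males with normal glucose mated to females that had been pretreated with vehicle (3 samples, normal glycemic females) or with streptozotocin, written STZ in the labels (3 samples, hyperglycemic females); STZ kills the insulin-producing cells of the pancreas. The labels also list non-cardiac mesoderm, ectoderm and endoderm among the lineages in the tissue. The deposited matrix tells 6 libraries apart by the barcode suffix, 1 to 6, but no file used here pairs a suffix with a sample, so vehicle and STZ could not be compared. Libraries are therefore numbered by suffix and described without a group, the matrix counts as 1 sample, and no test was run. Nothing in the labels says whether a library was 1 embryo or a pool.

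The promoters of 3 of the 15 genes with the highest endocardial level relative to other endothelial cells (given below) are shown because each holds 1 of 3 short motifs searched on both strands: AGATAA for GATA factors, TGGAAA for NFAT factors and CCGGAA for ETS factors. Each sequence is the RefSeq window of GRCm38.p6 from 250 bases before to 50 bases after the start that RefSeq gives, written 5′ to 3′ along the gene's strand, with the motif or its reverse complement in capitals. The Hand2os1 window is chr8:57320810-57321109 on the minus strand and holds the GATA letters. The Car4 window is chr11:84957504-84957803 on the plus strand and holds the ETS letters, which overlap their own reverse complement. The Bmx window is chrX:164258144-164258443 on the minus strand and holds the NFAT letters.
Hand2os1: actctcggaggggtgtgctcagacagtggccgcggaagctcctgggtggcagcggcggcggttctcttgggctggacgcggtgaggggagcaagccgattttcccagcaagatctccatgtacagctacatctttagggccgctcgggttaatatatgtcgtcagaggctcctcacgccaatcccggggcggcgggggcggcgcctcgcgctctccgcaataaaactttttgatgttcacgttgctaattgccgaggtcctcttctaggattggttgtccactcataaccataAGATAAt
Car4: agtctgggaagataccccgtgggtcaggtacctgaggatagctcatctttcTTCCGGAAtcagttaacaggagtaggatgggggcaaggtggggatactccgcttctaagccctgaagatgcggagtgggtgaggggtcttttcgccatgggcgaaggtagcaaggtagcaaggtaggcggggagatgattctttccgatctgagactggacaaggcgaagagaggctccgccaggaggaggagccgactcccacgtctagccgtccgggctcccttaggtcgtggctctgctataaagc
Bmx: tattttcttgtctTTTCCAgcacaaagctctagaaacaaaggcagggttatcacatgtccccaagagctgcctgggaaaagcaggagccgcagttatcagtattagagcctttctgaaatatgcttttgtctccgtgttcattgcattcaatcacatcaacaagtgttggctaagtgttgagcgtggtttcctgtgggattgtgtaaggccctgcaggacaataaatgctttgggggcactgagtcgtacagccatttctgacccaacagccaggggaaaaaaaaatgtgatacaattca

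RefSeq windows were matched for 11 of the 15 genes, the rule gene Npr3 among them. Of these 11 windows, 1 held the GATA letters, 1 the NFAT letters and 1 the ETS letters, or 9.09% each. Of all 32851 windows in the table, 11.2% held the GATA letters, 21.4% the NFAT letters and 14.9% the ETS letters. The shares in these few windows were thus not above those of promoters in general. For the 15 genes with the lowest relative level, 12 genes had 15 windows, of which 2 held the GATA letters, 2 the NFAT letters and none the ETS letters. A match of letters is a description of the window and not a binding site.

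The endocardial cells held 69215053 UMIs in all. Their median was 41392 UMIs and 6787 genes per cell, against medians of 37787.5 UMIs in other endothelial cells and 32289 in non-endothelial cells. Between libraries the endocardial median ran from 40025 to 43634 UMIs. Barcode sequences that also occurred in another library made up 249 endocardial cells (16.7%), 17.0% of other endothelial cells and 7.51% of non-endothelial cells. None of these 249 was endocardial in more than 1 library, and 241 had a copy elsewhere with at most 1/10 of its UMIs. A doublet score, set to mark the expected number of barcodes with 2 cells in each library, marked 168 endocardial cells (11.2%), 17.4% of other endothelial cells and 6.27% of non-endothelial cells. Library 1 also stood apart in sex-linked RNA: its endocardial cells had Xist at 382 CPM and Eif2s3y, on the Y chromosome, at 0, while libraries 2 to 6 had Xist at 0 to 0.0992 CPM and Eif2s3y at 46.0 to 68.7 CPM. Below, levels are counts per 1000000 UMIs (CPM) of UMIs summed over cells, and ranges in brackets are exact 95% intervals that cover counting error only. Where 3 library values follow each other, they are the lowest, the median and the highest of the 6 libraries. Where libraries are said not to overlap, this describes the named gene only. The share of all genes without overlap was not worked out.

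Endocardial cells made up 73.7% (71.7 to 75.6, exact binomial) of endothelial cells and 4.16% (3.95 to 4.37) of retained cells. These shares count every cell that met the rule. Among them is a group of 221 cells, subcluster 6 below, in which most leading endocardial genes were low. Libraries 1 to 6 held 447, 325, 117, 160, 230 and 216 of them. Their share of endothelial cells was 84.3, 75.9, 68.4, 64.8, 63.5 and 74.2% in the same order. Library 1 was highest and its interval (81.0 to 87.3) lay above those of the other 5 libraries. The share of retained cells that were endothelial was also highest in library 1, at 8.23%, and lowest in library 3, at 3.49%. A share of dissociated cells also depends on the dissection, and fewer endocardial cells cannot be told apart from a different cut of tissue. The threshold is on raw UMIs: when every cell was first thinned to 5000 UMIs, 59 cells passed, 14.9% of the endothelial cells left by the same rule.

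The values that chose the cells were as follows. The sum of Nfatc1 and Npr3 UMIs had quartiles of 9, 16 and 25 and reached 110. Nfatc1 had a median of 3 UMIs per endocardial cell and Npr3 a median of 12. Both genes were detected in 1248 of the 1495 cells, Npr3 alone in 211 and Nfatc1 alone in 36. In other endothelial cells the sum was 0 in 176 cells and 1 to 3 in 358. The cells did not fall into 2 separate heaps: 101 cells sat just outside the threshold with a sum of 3, and 79 just inside it with a sum of 4. A sum of 4 or more also occurred in 1227 non-endothelial cells, 933 of them with Npr3 alone and 43 with Nfatc1 alone. Of these 1227 cells, 98 had 3 of the 6 endothelial genes and so missed the rule by 1 gene.

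**Figure D1:**
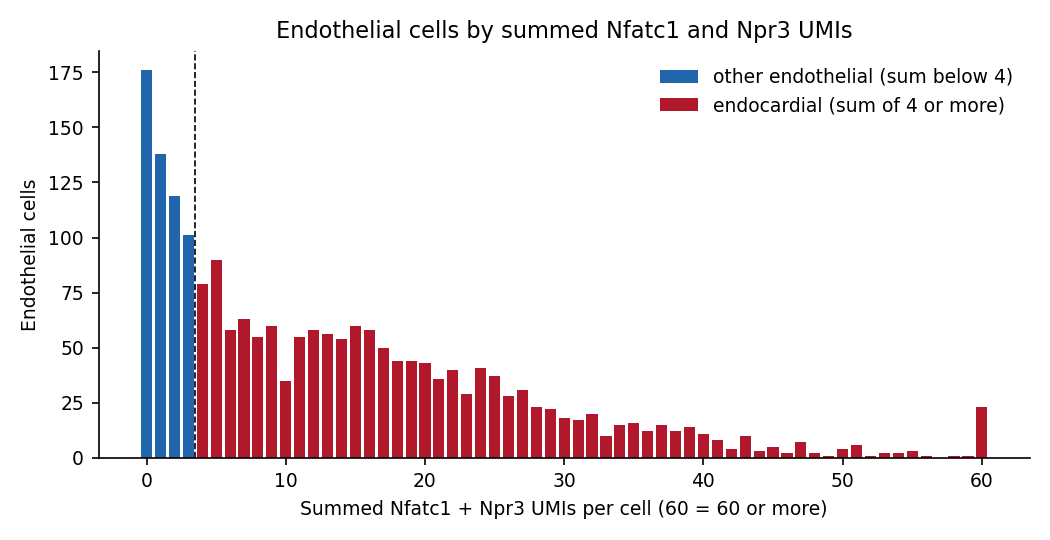
Number of endothelial cells (vertical axis) at each sum of Nfatc1 and Npr3 UMIs per cell (horizontal axis, 60 standing for 60 or more), all libraries together. Blue bars are the 534 other endothelial cells, red bars the 1495 endocardial cells, and the dashed line marks the threshold, which cuts through a continuous spread of sums.

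The label was checked against the data. Pecam1, an adhesion molecule of endothelial junctions, was at 226 CPM in endocardial cells, 186 in other endothelial cells and 3.78 in non-endothelial cells. Cdh5, the cadherin of endothelial junctions, was at 285, 278 and 0.846 CPM. Npr3 was at 316, 15.4 and 11.6 CPM and Nfatc1 at 89.4, 13.3 and 2.72 CPM. These genes are part of the rule, so their levels support nothing. Both endothelial classes met the same requirement on Pecam1 and Cdh5, and only Nfatc1 and Npr3 divided them. The ratios between these classes were 1.21 for Pecam1 and 1.03 for Cdh5. The rest of the rule was lower in endocardial cells in all 6 libraries, within 2-fold when pooled. Kdr, the main VEGF receptor, was at 171 CPM against 229 in other endothelial cells, and the sialomucin gene Emcn at 508 against 744. Egfl7 was at 433 against 738 CPM and Esam at 123 against 172 CPM.

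Clustering of the 1495 cells among themselves, without the 8 rule genes, haemoglobin genes and sex-linked genes, gave 10 subclusters. Subclusters 5, 6, 8 and 9 were led by genes of other cell types or of other endothelium. Subcluster 6 (221 cells, 14.8%) was led by Depp1, Col15a1, Tmem255a, Rgs2 and Hpgd, and 3 of these 5 were also among the 15 genes with the lowest endocardial level relative to other endothelial cells. Subcluster 8 (23 cells) was led by epithelial genes such as Epcam, at 355 CPM against 2.58 in the other endocardial cells. Subcluster 9 (85 cells) was led by heart muscle genes such as Nppa, at 437 CPM against 1.34. Median UMIs were 63616 in subcluster 8 and 66264 in subcluster 9, and their median doublet scores were 0.208 and 0.267, against 0.0298 to 0.0481 in the other subclusters. Subcluster 5 (279 cells) was led by haemoglobin genes such as Hba-x, at 4232 CPM against 24.3. It held all 5 endocardial cells with at least 1% of their UMIs from haemoglobin genes. Without these 5 cells the summed haemoglobin level of endocardial cells was between 130 and 269 CPM in every library. Subcluster 5 had Irx5 at 201 CPM and Cdkn1c at 8894 CPM. Subcluster 10 (55 cells) had Irx5 at 1.16 CPM and Gata5 at 4.63 CPM, with Cldn5 at 122 CPM and Aplnr at 75.6 CPM. Its Gata4 was at 181 CPM and its Nrg1 at 204 CPM. The cells of all these subclusters fit the rule and stay in the values below unless stated otherwise. Subclusters 6, 8, 9 and 10 are left out together in an alternative below.

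Against the non-endothelial cells, the genes with the largest ratios were mostly genes of endothelium in general. Of 9417 genes with at least 10 CPM in either class, 924 (9.81%) were at least 2-fold higher and 864 (9.17%) at least 2-fold lower in endocardial cells, with the same direction in all 6 libraries. The median log2 ratio over all genes was -0.02. The 10 largest ratios among genes with at least 50 CPM were those of Emcn, Gja4, Cdh5, Gpr182, Klhl4, Tie1, Adgrf5, Esam, Gimap1 and Cldn5, of which Emcn, Cdh5 and Esam are rule genes. Gja4, a gap junction protein of arterial endothelium, was at 188 CPM against 0.462, a ratio of 406 (373 to 443). Gpr182, an atypical chemokine receptor of endothelium, was at 73.8 CPM against 0.312, a ratio of 237 (213 to 263). Tie1, a receptor tyrosine kinase of the angiopoietin system, was at 103 against 0.618 CPM, a ratio of 167 (155 to 180.4). In other endothelial cells Tie1 was at 81.2 CPM and Gimap1 at 74.1 CPM, against 79.7 in endocardial cells, so these genes set endothelium apart from other tissue and were within 2-fold in the 2 endothelial classes, as was Adgrf5. Among the other leading genes outside the rule, Gpr182 was at 12.3 CPM in other endothelial cells, a ratio of 6.00, Gja4 at 58.5 CPM, a ratio of 3.21, and Klhl4 at 92.0 CPM, a ratio of 2.11, all called higher. With each cell thinned to 5000 UMIs the Klhl4 ratio was 1.95, under 2-fold. Cldn5 was called lower, as given below.

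Within the endothelium, the endocardial cells differed by fewer genes. Of 8791 genes with at least 10 CPM in either class, 321 (3.65%) were at least 2-fold higher and 146 (1.66%) at least 2-fold lower in endocardial than in other endothelial cells, with the same direction in all 6 libraries. Of these, 97 were at least 4-fold higher and 37 at least 4-fold lower, and the median log2 ratio over all genes was 0.02. The rule split the same cells by 2 genes, Nfatc1 and Npr3, so these counts and ratios describe the classes and are no test. Without those 2 genes the count of higher genes was 319. Without the 10 other endothelial cells that had 5 or more UMIs of the platelet factor gene Pf4, the ratios of Rgs10 and Dlg2, both among the 15 lowest, were 0.778 and 0.610 in place of 0.174 and 0.175. Without subclusters 6, 8, 9 and 10, which left 8828 genes with at least 10 CPM in either class, 411 (4.66%) were higher and 315 (3.57%) lower. These subclusters were left out of the endocardial class only, after levels had been seen. Ratios of genes that were high in them therefore had to fall. Of 90 named genes past 2-fold, 59 were higher and 31 lower. The 59 include the rule genes Nfatc1 and Npr3, which were bound to stay higher. With a threshold sum of 8, 46 of the 59 and 29 of the 31 stayed past 2-fold and 37 ratios moved by over 1.5 times. Without subcluster 3, also left out of the endocardial class only, 50 and 28 stayed past it and 6 ratios moved that far. In cells with 15000 to 45000 UMIs of both classes, 52 and 29 stayed past it and 16 ratios moved that far. Against the other endothelial cells with a sum of 0, 31 ratios moved by over 1.5 times.

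**Figure D2:**
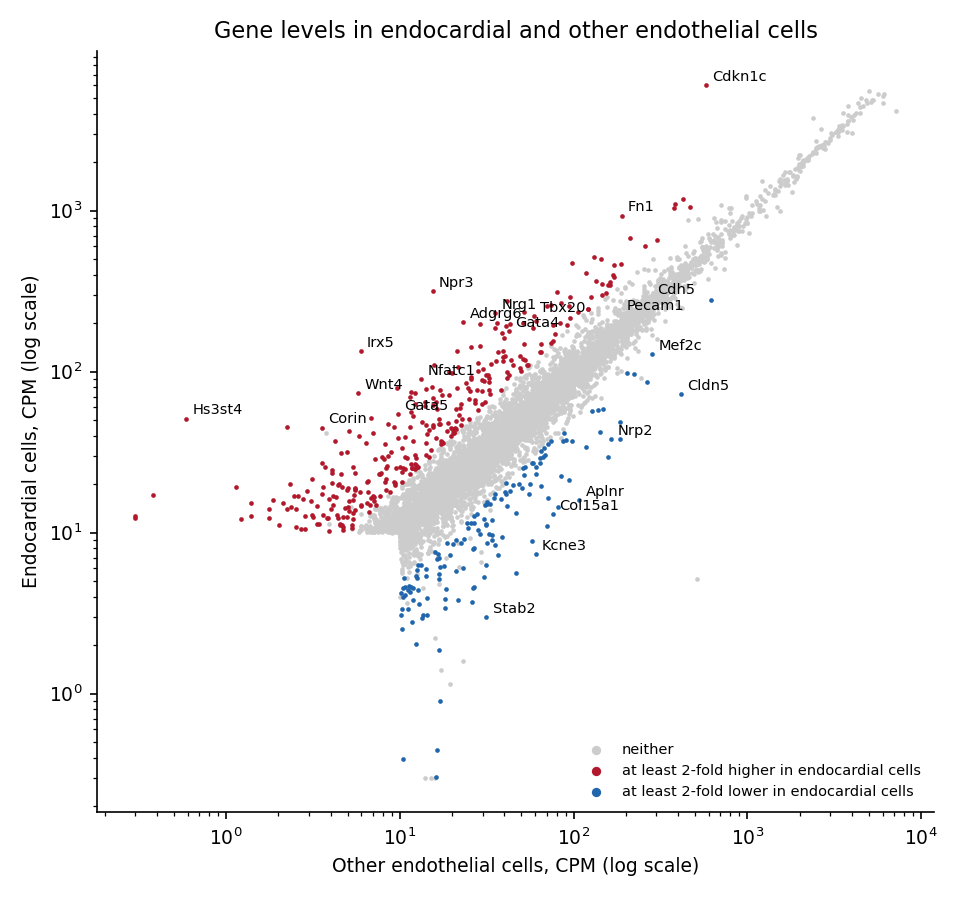
Level of each gene with at least 10 CPM in either class, in other endothelial cells (horizontal axis) and endocardial cells (vertical axis), both in CPM on log scales, all libraries together and values under 0.3 drawn at 0.3. Red points are the 321 genes at least 2-fold higher and blue points the 146 at least 2-fold lower in endocardial cells, in the same direction in all 6 libraries; Cdkn1c and Irx5 lie far above the band of grey points and Cldn5 and Aplnr below it.

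The largest ratio among called genes with at least 20 CPM was that of Hs3st4 (chromosome 7, 123982869 to 124398989), a sulfotransferase that modifies heparan sulfate chains. Library values were 35.8, 41.1 and 67.8 CPM in endocardial cells and 0, 0.337 and 1.75 CPM in other endothelial cells. No library overlapped, and the 2 highest endocardial values were near each other and above the other 4. The pooled level was 51.1 against 0.592 CPM, a ratio of 86.4 (51.4 to 158), and it was 1.46 CPM in non-endothelial cells. Irx5 (chromosome 8, 92357625 to 92376286), a homeobox transcription factor of the Iroquois family, followed with library values of 86.6, 127 and 174 CPM against 2.33, 6.69 and 8.74 CPM. The lowest endocardial library was far above the highest library of other endothelial cells. The pooled ratio of Irx5 was 22.6 (19.2 to 26.9), and it was 30.1 without subclusters 6, 8, 9 and 10. The order depended on the threshold: with a sum of 8 in the rule the ratio of Hs3st4 was 9.55, below that of Irx5 at 13.5.

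Car4, a carbonic anhydrase anchored to the cell surface (chromosome 11, 84957786 to 84966044), had library values of 28.1, 43.3 and 68.4 CPM against 0, 2.16 and 4.37 CPM. Its pooled ratio was 20.3 (15.5 to 27.2). Wnt4, a secreted Wnt ligand, had library values of 45.9, 72.5 and 96.5 CPM against 1.75, 3.996 and 10.7 CPM and a ratio of 12.8 (10.8 to 15.3). Corin, the membrane protease that cuts the precursor of atrial natriuretic peptide, had values of 33.7, 41.2 and 58.3 CPM against 0.638, 3.24 and 9.91 CPM and a ratio of 12.7 (10.2 to 15.9). For Car4, Wnt4 and Corin the libraries of the 2 classes did not overlap. With a threshold sum of 8 their ratios were 8.01, 5.66 and 7.97. The Car4 ratio was 73.4 in cells with 15000 to 45000 UMIs and 6.57 with 3 of 6 endothelial genes required. Corin acts on the precursor of a peptide that the receptor encoded by Npr3 clears, and the other receptor genes of this system were not higher: Npr1 was at 22.5 CPM against 37.7 and Npr2 at 0.607 against 0.676 CPM.

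Cdkn1c, an imprinted gene whose product p57 inhibits cyclin-dependent kinases, was at 7513, 5456, 9111, 4473, 4346 and 5244 CPM in the endocardial cells of libraries 1 to 6. In other endothelial cells it was at 1108, 644, 859.5, 274, 307 and 532 CPM in the same order. Every endocardial library was above every library of other endothelial cells, and libraries 1 to 3 were all above libraries 4 to 6 in both classes. The same order held in non-endothelial cells, at 824, 826, 738, 560.2, 630.1 and 591 CPM. The pooled ratio of Cdkn1c was 10.4 (10.3 to 10.6). Of the 11 genes of cell division at 10 CPM or more it was the only one past 2-fold, against 3.65% of all genes called higher and 1.66% lower, and the list's median log2 ratio was -0.08, against 0.02 over all genes. Mki67, a marker of cycling cells, was at 130.0 against 127 CPM and Top2a, a topoisomerase of dividing cells, at 362 against 307 CPM. The cyclin genes went different ways below 2-fold, with Ccnd2 at 217 against 114 CPM (a ratio of 1.90, and 2.16 without subclusters 6, 8, 9 and 10) and Ccnd1 at 134 against 235 CPM.

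The other genes among the 15 highest included several surface and signalling proteins. Adgrg6, an adhesion receptor coupled to G proteins, was at 204 against 23.2 CPM, a ratio of 8.78 (8.07 to 9.58). Ackr3, a scavenger receptor for the chemokine CXCL12, was at 42.5 against 5.11 CPM, a ratio of 8.32 (6.94 to 10.1). Bmx, a tyrosine kinase of the TEC family found in arterial endothelium and endocardium, was at 51.4 against 6.80 CPM, a ratio of 7.56 (6.46 to 8.91). Gldc, the glycine decarboxylase of mitochondria, Spon1, a secreted matrix protein, Smtnl2 and the predicted gene Gm44516 had ratios of 8.80, 8.20, 7.68 and 8.67. Against other endothelial cells with a sum of 0 the ratios of Ackr3 and Bmx were 32.2 and 35.0, and with a threshold sum of 8 they were 4.75 and 4.45. In each of these 7 genes all endocardial libraries lay above all libraries of other endothelial cells. They were picked for large ratios with the same direction in all 6 libraries, so this adds little to the ratios.

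Hand2os1, a long non-coding RNA (chromosome 8, 57281117 to 57324233, minus strand), was at 111 against 15.7 CPM, a ratio of 7.05 (6.35 to 7.85). It overlaps Hand2 (chromosome 8, 57320983 to 57324633, plus strand), a transcription factor gene of heart development, in the annotation. Hand2 was at 107 against 21.6 CPM, a ratio of 4.94 (4.52 to 5.41). How strand was used in counting is not given in the sources used here, so reads of the shared stretch may not be told apart. The promoter window of Hand2os1 printed above follows the RefSeq start, which lies inside the longer gene of the annotation used for coordinates, and it spans the annotated start of Hand2.

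**Figure D3:**
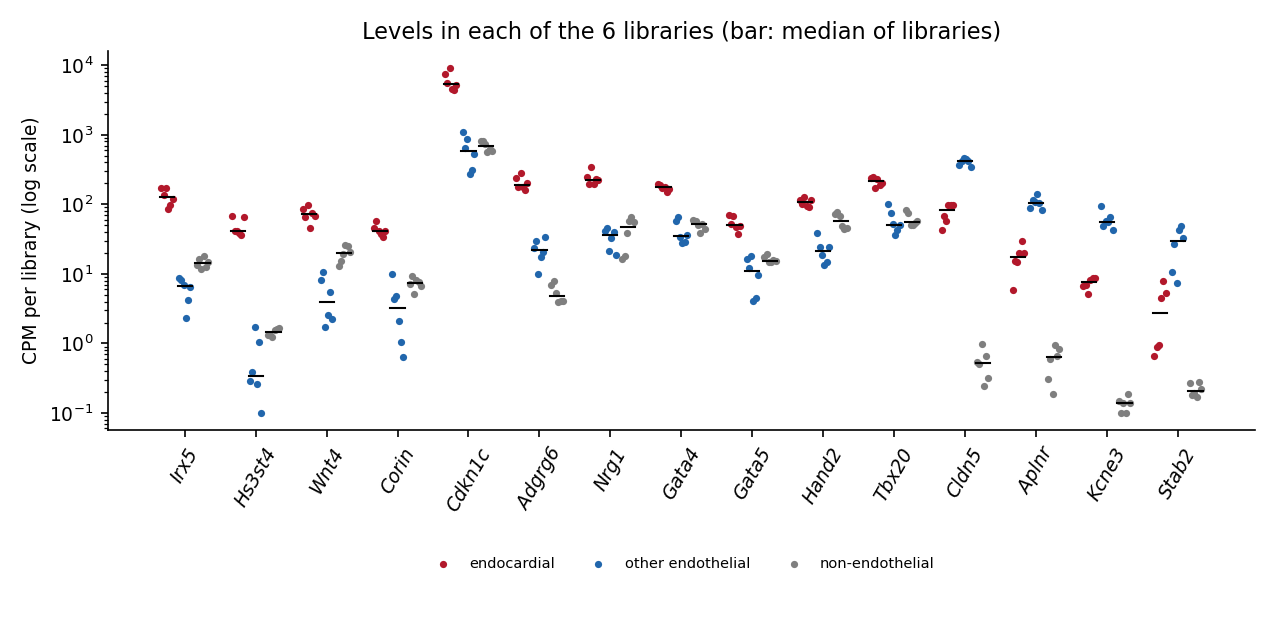
Levels of 15 genes in each of the 6 libraries, in CPM on a log scale, with values under 0.1 drawn at 0.1; red points are endocardial, blue other endothelial and grey non-endothelial cells, and black bars mark the median of libraries. From Irx5 to Tbx20 every red point lies above every blue point of the same gene, for Cldn5, Aplnr and Kcne3 every red point lies below, and for Stab2 red and blue overlap.

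Among 15 listed transcription factors of the endocardium, 14 reached 10 CPM, 9 were at least 2-fold higher and 1 was at least 2-fold lower. The list's median log2 ratio was 1.52, against 0.02 over all genes, of which 3.65% were called higher. The GATA factors, zinc finger proteins of heart and gut development, were all higher. Gata4 had library values of 149, 177 and 193 CPM against 27.4, 35.2 and 66.1 CPM, with no overlap, and a ratio of 4.23 (3.97 to 4.52). Gata5 was at 54.6 against 9.80 CPM, a ratio of 5.57 (4.88 to 6.39), and Gata6 at 103 against 29.998 CPM, a ratio of 3.45 (3.19 to 3.73). Tbx20, a T-box factor of heart muscle and endocardium, had library values of 173, 216 and 244 CPM against 36.0, 50.7 and 101 CPM and a ratio of 3.75 (3.55 to 3.97), which was 1.97 without subcluster 3. Foxc2, Meis1 and Meis2 had ratios of 3.04, 2.53 and 2.69. The Meis2 ratio was 1.99 with a threshold sum of 8, and the Meis1 ratio 1.84 with 3 of 6 endothelial genes required. Mef2c, a MADS-box factor of muscle and endothelium, was the one on the lower side, at 128 against 284 CPM, 2.22-fold lower (2.15 to 2.29). Foxc1, Foxp1, Sox4 and Id2 lay below 2-fold, with ratios from 1.17 to 1.81.

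The listed signals and surface proteins of the endocardium showed the same tilt, with 10 of 16 measured genes at least 2-fold higher (3.65% over all genes), none lower (1.66%) and a median log2 ratio of 1.37. Nrg1, the neuregulin ligand through which endocardium acts on the forming trabeculae of heart muscle, had library values of 197, 225 and 343 CPM against 18.8, 36.3 and 45.2 CPM. The lowest endocardial library was above the highest library of other endothelial cells, and libraries 1 to 6 were at 250.3, 198, 343, 197, 228 and 222 CPM, highest in library 3. The pooled ratio was 6.55 (6.11 to 7.03). It was 30.4 against the 176 other endothelial cells without any Nfatc1 or Npr3 UMI, and 3.13 where the threshold was a sum of 8. The receptors were not higher: Erbb4, the receptor in heart muscle, was at 28.5 CPM against 39.0 in other endothelial and 250.1 in non-endothelial cells. Without subclusters 8 and 9 the Erbb4 ratio was 0.310 in place of 0.729, and without subclusters 6, 8, 9 and 10 it was 0.369, both more than 2-fold lower. These subclusters were left out of the endocardial class only, while other endothelial cells kept all of theirs. Without the cells marked by the doublet score the Erbb4 ratio was 0.799, within 2-fold. A lower Erbb4 level in endocardial cells can therefore not be read from the values without subclusters. Erbb2 was at 5.74 and Erbb3 at 1.34 CPM in endocardial cells, both under the minimum of 10 CPM.

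Other members of that list were the guidance cue Slit2, at 201 against 36.2 CPM with a ratio of 5.56 (5.19 to 5.96), and Cdh11, a cadherin of mesenchyme, at 143 against 29.1 CPM with a ratio of 4.93 (4.56 to 5.33). Tmem100, a membrane protein induced by BMP signals in endothelium, had library values of 33.6, 67.5 and 96.7 CPM against 0.518, 8.18 and 29.5 CPM. Its endocardial values were lowest in library 3 and highest in library 6, and the ratio was 6.07 (5.37 to 6.88). It was 43.2 against other endothelial cells with a sum of 0, 3.86 with a threshold sum of 8 and 3.49 in cells with 15000 to 45000 UMIs. Ece1, the enzyme that makes active endothelin, was at 206 against 60.6 CPM and Edn1, the endothelin precursor, at 41.8 against 20.5 CPM. The Edn1 ratio of 2.04 (1.85 to 2.25) lay near the 2-fold limit and was 1.08 with a threshold sum of 8. Vwf, which encodes von Willebrand factor, was at 58.4 against 21.1 CPM.

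In the BMP and TGF-beta pathway, 7 of 19 measured genes were at least 2-fold higher and none lower, against 3.65% and 1.66% of all genes, with a median log2 ratio of 0.84. The ligand gene Bmp6 was at 25.2 against 10.4 CPM, while Bmp4 was at 15.4 against 30.6 CPM and Tgfb2 at 61.2 against 42.5 CPM. Among receptors, Bmpr1a was at 92.7 against 25.6 CPM, a ratio of 3.62 (3.33 to 3.94), and Acvr1 at 95.8 against 42.7 CPM. Tgfbr3, the co-receptor betaglycan, was at 259 against 74.1 CPM, a ratio of 3.49 (3.33 to 3.67). Acvrl1, a BMP receptor of vascular endothelium, was at 19.9 against 38.8 CPM and so just within 2-fold. Without subclusters 6, 8, 9 and 10 the ratios of Acvrl1 and Bmp4 were 0.233 and 0.0798, in place of 0.511 and 0.503, and the list then had 8 higher and 2 lower genes, against 4.66% and 3.57% of all genes. Smad6, an inhibitor inside the pathway, was at 132 against 36.7 CPM, a ratio of 3.61 (3.37 to 3.87), and Bmper, a secreted BMP modulator, at 36.1 against 14.2 CPM. Bmper was among the leading genes of subcluster 3. Leaving that subcluster out of the endocardial class only had to lower the ratio, which was then 0.795 in place of 2.55. The Bmp6 ratio was then 1.90 in place of 2.42. With a threshold sum of 8 the ratios of Bmp6, Bmper and Acvr1 were 1.64, 1.42 and 1.93, so that 3 of the 7 were under 2-fold.

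In the Notch pathway, 2 of 14 measured genes were at least 2-fold higher and 1 at least 2-fold lower (3.65% and 1.66% of all genes), with a median log2 ratio of 0.59. The receptor gene Notch1 had library values of 88.9, 92.7 and 101 CPM against 51.9, 56.8 and 63.8 CPM, with no overlap and a ratio of 1.60 (1.51 to 1.70), below 2-fold. The ligand gene Dll4 was at 19.9 against 13.0 CPM and Jag1 at 11.9 against 8.03 CPM. The ligand gene Dll1, at 10.7 against 5.32 CPM, just passed 2-fold. Hey2, a target repressor of the pathway, was at 16.8 against 4.14 CPM, a ratio of 4.06 (3.30 to 5.04), and Hey1 at 38.2 against 23.7 CPM. Without subcluster 3 the ratio of Hey2 was 2.01. Hey2 was at 65.1 CPM in subcluster 3 and 22.1 CPM in subcluster 6, against 2.60 to 7.05 CPM in subclusters 1, 2, 4, 5 and 7. With a threshold sum of 8 the Dll1 ratio was 1.92. Without subclusters 6, 8, 9 and 10 the ratios of Dll4, Jag1 and Hey1 were 1.20, 0.888 and 1.01, in place of 1.53, 1.48 and 1.61. Mfng, a glycosyltransferase that modifies Notch receptors, was at 18.98 against 50.7 CPM, 2.67-fold lower (2.47 to 2.89).

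Genes of vessels were divided. Of the listed arterial genes, 5 of 12 measured were at least 2-fold higher, namely Gja4, Gja5, Hey2, Bmx and Mecom, against 3.65% of all genes, and none was lower; the median log2 ratio was 0.68. Gja5, a gap junction protein of arteries and heart chambers, was at 10.1, 15.1, 1.69, 19.5, 23.6 and 30.3 CPM in the endocardial cells of libraries 1 to 6 and pooled at 16.7 against 4.27 CPM. Its ratio was 3.92 (3.19 to 4.85), and 0.945 without subclusters 6, 8, 9 and 10. Without them 3 of 11 measured arterial genes were higher (Gja4, Hey2 and Bmx) and 2 were lower (Sox17 and Igfbp3), against 4.66% and 3.57% of all genes. Gja5 and Igfbp3 were high in subcluster 6, which was left out of the endocardial class only, so their ratios had to fall. In cells with 15000 to 45000 UMIs the ratio of Gja4 was 1.86 in place of 3.21 and that of Mecom 1.999 in place of 2.12, and with a threshold sum of 8 that of Mecom was 1.69. Of the listed venous and lymphatic genes, 5 of 10 measured were at least 2-fold lower (Nrp2, Flt4, Aplnr, Prox1 and Stab2), against 1.66% of all genes. In the same list 1 gene, Lyve1, was higher, and the median log2 ratio was -0.75. The Prox1 ratio of 0.481 lay near the limit. It was 0.508 with a threshold sum of 8 and 0.534 without the cells marked by the doublet score. Of the listed genes of VEGF and angiopoietin signals, 1 of 11 measured was higher and 4 were lower, beside the same 3.65% and 1.66% over all genes, with a median log2 ratio of -0.04. Leaving out subclusters 6, 8, 9 and 10 gave 5 lower genes in that list, against 3.57% of all genes, and the added one, Angpt1, an angiopoietin ligand, had a ratio of 0.145 in place of 0.511. They were left out of the endocardial class only. The Angpt1 ratio was 0.744 without other endothelial cells with 5 or more Pf4 UMIs and 0.883 against those with a sum of 0. In cells with 15000 to 45000 UMIs it was 0.228, so it depended on the cells compared. Vegfc, a ligand for lymphatic and vascular growth, was the higher one, at 85.6 against 24.2 CPM.

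Aplnr, the receptor for apelin in sprouting and venous endothelium, was at 5.81, 15.1, 14.8, 19.7, 29.3 and 20.1 CPM in the endocardial cells of libraries 1 to 6 and at 87.1, 117, 108, 142, 104 and 82.0 CPM in other endothelial cells. All endocardial libraries were below all others, and library 1 was lowest. Pooled, it was 6.77-fold lower (6.30 to 7.27). Its ligand gene Apln was at 2.04 against 12.5 CPM. Cldn5, the claudin of endothelial tight junctions, had library values of 42.2, 83.3 and 98.7 CPM against 348, 421 and 467 CPM and was 5.70-fold lower (5.51 to 5.90). Nrp2, a co-receptor for VEGF-C and semaphorins, was at 38.1 against 165 CPM. Without subclusters 6, 8, 9 and 10 the endocardial to other endothelial ratios were 0.0228 for Aplnr, 0.0368 for Cldn5 and 0.104 for Nrp2, against 0.148, 0.175 and 0.231 with them. Subclusters 6 and 10 had the highest levels of these genes among the subclusters, so leaving them out had to lower the ratios.

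Stab2, a scavenger receptor that clears hyaluronan, had the smallest ratio among called genes with at least 20 CPM, with library values of 0.668, 2.70 and 7.94 CPM against 7.44, 30.003 and 48.8 CPM. The classes overlapped between libraries although endocardial cells were lower within each library, and pooled it was 10.51-fold lower (8.999 to 12.3). Kcne3, a subunit of potassium channels, was 8.20-fold lower (7.41 to 9.09) at 7.40 against 60.7 CPM. Gpr183, a receptor for oxysterols, was 6.99-fold lower, Hpgd, which breaks down prostaglandins, 6.34-fold, and Abcc9, a subunit of potassium channels gated by ATP, 5.87-fold. Col15a1, a collagen of basement membranes, was 5.82-fold lower (5.37 to 6.31) and Piezo2, a mechanically gated channel, 5.38-fold lower (5.10 to 5.68). Mdga2, Tafa2, Tmem255a and D030007L05Rik completed the 15 with Rgs10 and Dlg2. Without subclusters 6, 8, 9 and 10 the endocardial cells held 3 UMIs of Stab2, and its ratio was 0.00199 (0.000410 to 0.00585) in place of 0.0951. The ratios of Kcne3 and Col15a1 were then 0.0127 and 0.00658 in place of 0.122 and 0.172. Subcluster 6 had Stab2 at 17.0 CPM and Col15a1 at 80.4 CPM, so leaving it out had to lower their ratios.

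General endothelial genes outside the rule were mostly within 2-fold of each other in the 2 classes: of 22 listed, 1 was at least 2-fold higher and 3 at least 2-fold lower (3.65% and 1.66% of all genes), with a median log2 ratio of -0.11. Calcrl, the receptor for adrenomedullin, was at 348 against 159 CPM, a ratio of 2.19, and 1.77 with a threshold sum of 8. Cldn5, Robo4 and Lmo2 were the lower ones, with Lmo2, a transcription cofactor of blood and vessels, at 86.3 against 264 CPM. With subclusters 6, 8, 9 and 10 left out, 2 were higher and 6 lower, against 4.66% and 3.57% of all genes with the same cells left out. Tek, the angiopoietin receptor, had a ratio of 1.65 and Erg, an ETS factor of endothelium, of 0.745. Of the listed haemogenic genes, 3 reached 10 CPM, and Runx1, at 0.896 against 17.0 CPM, was lower. Its ratio was 0.0526, and 0.287 without the 10 other endothelial cells with 5 or more Pf4 UMIs. Runx1 in other endothelial cells was 3.21, 1.15, 73.5, 9.06, 18.8 and 23.9 CPM in libraries 1 to 6. Library 3 stood far above the rest, and those 10 cells held 99.6% of that class's Pf4 UMIs.

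Most listed genes that respond to blood flow were within 2-fold. Of 12 measured genes of shear stress and nitric oxide, 2 (Nos3 and Edn1) were at least 2-fold higher, against 3.65% of all genes, and none was lower, with a median log2 ratio of 0.26. Nos3, the endothelial nitric oxide synthase, had library values of 57.4, 63.9 and 71.2 CPM against 28.0, 30.9 and 32.4 CPM, with no overlap and a ratio of 2.08 (1.92 to 2.25). It was 1.78 with a threshold sum of 8, 1.91 without the cells marked by the doublet score and 1.98 without subcluster 3, so that neither Nos3 nor Edn1 passed 2-fold with a sum of 8. Klf2, a transcription factor induced by flow, had library values of 282, 328 and 379.7 CPM against 218, 253 and 279.9 CPM, also with no overlap, and a ratio of 1.32 (1.28 to 1.36). Klf4 was at 21.2 against 19.3 CPM and the mechanically gated channel gene Piezo1 at 60.8 against 56.7 CPM. Without subcluster 3 the ratio of Klf2 was 1.02 and that of Klf4 was 0.687 in place of 1.10. Heg1, a membrane protein of the pathway that restrains Klf2 in endocardium, had a ratio of 1.83 (1.73 to 1.94) and no overlap between libraries.

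Of the genes listed for the change of endothelium into cushion mesenchyme, 6 of 15 measured were at least 2-fold higher, against 3.65% of all genes, and 1 at least 2-fold lower, against 1.66%, with a median log2 ratio of 0.67. Among the higher ones were matrix genes: Fn1, fibronectin, was at 931 against 189 CPM, a ratio of 4.93 (4.78 to 5.08), Col3a1, a fibrillar collagen, at 187 against 35.4 CPM, and Postn, periostin, at 16.01 against 1.86 CPM. Pdgfrb, a receptor of mural cells and mesenchyme, had a ratio of 4.26. Has2 had a ratio of 2.10, and of 1.40 with a threshold sum of 8. It was high in subcluster 3, so leaving that out of the endocardial class only had to lower the ratio, which was then 0.973. Of the transcription factors in the list, Msx1, a homeobox factor of the cushions, was higher with a ratio of 2.86 (2.56 to 3.21), which was 1.88 without subcluster 3 and 1.74 with a sum of 8, and the others at 10 CPM or more lay within 2-fold. Snai1 was at 10.3 against 14.999 CPM, Zeb1 at 285 against 294 CPM and Twist1 at 64.0 against 37.9 CPM. Cdh2, N-cadherin, was lower at 25.5 against 52.8 CPM, a ratio of 0.484, and 0.513 without subcluster 3. In the list of cardiac jelly and matrix genes, 2 of 16 measured were higher (Has2 and Fbln2) and 2 lower (Adamts9 and Timp3), against 3.65% and 1.66%, with a median log2 ratio of 0.27. Without subcluster 3 neither higher gene passed 2-fold, with Fbln2, a fibulin of the matrix, at a ratio of 1.48 in place of 2.72, and Adamts9 was at 0.528 in place of 0.467. In cells with 15000 to 45000 UMIs the ratio of Fbln2 was 1.78. Hapln1, which links hyaluronan to proteoglycans in the cardiac jelly, had a ratio of 1.92 (1.88 to 1.96). Without subclusters 6, 8, 9 and 10 it was 2.35. The list then had 3 higher and 2 lower genes, against 4.66% and 3.57% of all genes.

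Genes tied to the study's question about glucose are given for the endocardial cells without a group. Of 10 measured genes of glucose handling, none was at least 2-fold higher and 2, Pfkp and Pdk1, were at least 2-fold lower, against 3.65% and 1.66% of all genes, with a median log2 ratio of -0.35. Both lay near the limit, with ratios of 0.478 and 0.485, and were at 0.516 for Pfkp with a threshold sum of 8 and 0.522 for Pdk1 without subcluster 3. Slc2a1, the glucose transporter GLUT1, was at 60.3, 70.2, 51.6, 85.9, 77.0 and 80.2 CPM in the endocardial cells of libraries 1 to 6 and at 109, 129, 186, 129, 136 and 120.2 CPM in other endothelial cells. Endocardial libraries were all below the others. The ratio was 0.531 (0.507 to 0.555), and 0.282 without subclusters 6, 8, 9 and 10. Txnip, an inhibitor of glucose uptake induced by glucose, was at 70.5, 71.1, 101, 80.8, 67.2 and 87.4 CPM in the endocardial cells of libraries 1 to 6. Of 12 measured genes of defence against oxidative stress none passed 2-fold, against 3.65% of all genes higher and 1.66% lower, with a median log2 ratio of -0.10. With so few genes these shares leave little room for a call, so the absence says little about the list. Of 9 measured genes of retinoic acid handling only Dhrs3, which turns retinal back into retinol, passed 2-fold, at 5.19 against 16.7 CPM, beside the same shares. In the retinoic acid list 1 gene was higher and 4 were lower without subclusters 6, 8, 9 and 10, and 2 of oxidative defence, Gpx3 and Nox4, were lower. Of all genes, 4.66% were higher and 3.57% lower there, and not 3.65% and 1.66%.

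Markers of other cell types varied between libraries and were present in both endothelial classes. The summed level of 10 cardiomyocyte markers ran from 197 to 1209 CPM in the endocardial cells of the 6 libraries and from 154 to 2946 CPM in other endothelial cells, against 5557 CPM in non-endothelial cells. The 9 erythroid markers ran from 185 to 4609 CPM and from 87.2 to 6392 CPM. Without 5 endocardial cells with at least 1% of their UMIs from haemoglobin genes, the summed haemoglobin level was between 130 and 269 CPM in every library. The 10 myeloid and megakaryocyte markers ran from 25.7 to 42.7 CPM and, in other endothelial cells, from 13.7 to 2607 CPM; C1qa was at 0 in endocardial cells. The 10 markers of mesenchyme and neural crest ran from 248 to 438 CPM, above the 70.0 to 119 CPM of other endothelial cells, and 2 of the 3 measured at 10 CPM or more, Postn and Col3a1, were called higher, against 3.65% of all genes.

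The 8 markers of smooth muscle and pericytes ran from 47.1 to 177 CPM in endocardial and 51.4 to 621 CPM in other endothelial cells. The 8 epithelial markers ran from 25.6 to 81.5 and from 19.5 to 88.3 CPM, the 8 neuronal ones from 43.0 to 137 and from 56.5 to 90.7 CPM, and the 8 epicardial ones from 9.20 to 32.6 and from 9.76 to 66.7 CPM. The part of these markers in the ratios above was not tested. The endocardial to other endothelial ratio without the cells marked by the doublet score was 28.0 for Irx5, 7.93 for Nrg1, 4.74 for Gata4 and 0.175 for Cldn5. Of the 90 named genes, 8 moved by over 1.5 times, among them Spon1 from 8.20 to 21.0, Pdgfrb from 4.26 to 11.3, Cdh11 from 4.93 to 9.02 and Car4 from 20.3 to 35.0. Rgs5, a pericyte marker within 2-fold at first, went from 0.639 to 2.99.

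Levels followed the sum that defined the class, which is a description, since the cells were sorted by it. In cells with sums of 0, 1 to 3, 4 to 7, 8 to 15, and 16 or more (176, 358, 290, 433 and 772 cells), Irx5 was at 2.79, 7.24, 23.1, 87.3 and 189.9 CPM. Nrg1 was at 7.64, 46.7, 164, 216 and 260.1 CPM. Cldn5 went the other way, at 499.7, 379, 217, 62.2 and 33.2 CPM. Next to the threshold, the 101 cells with a sum of 3 had Irx5 at 8.47, Nrg1 at 52.0 and Cldn5 at 295 CPM, and the 79 cells with a sum of 4 had them at 16.01, 111 and 245 CPM. The counting intervals of these 2 groups of cells were apart for each of the 3 genes, and their median UMIs were 42298 and 33553. The heart muscle marker Tnnt2 was at 38.6 and 239 CPM in them, and its part in the other values was not tested.

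**Figure D4:**
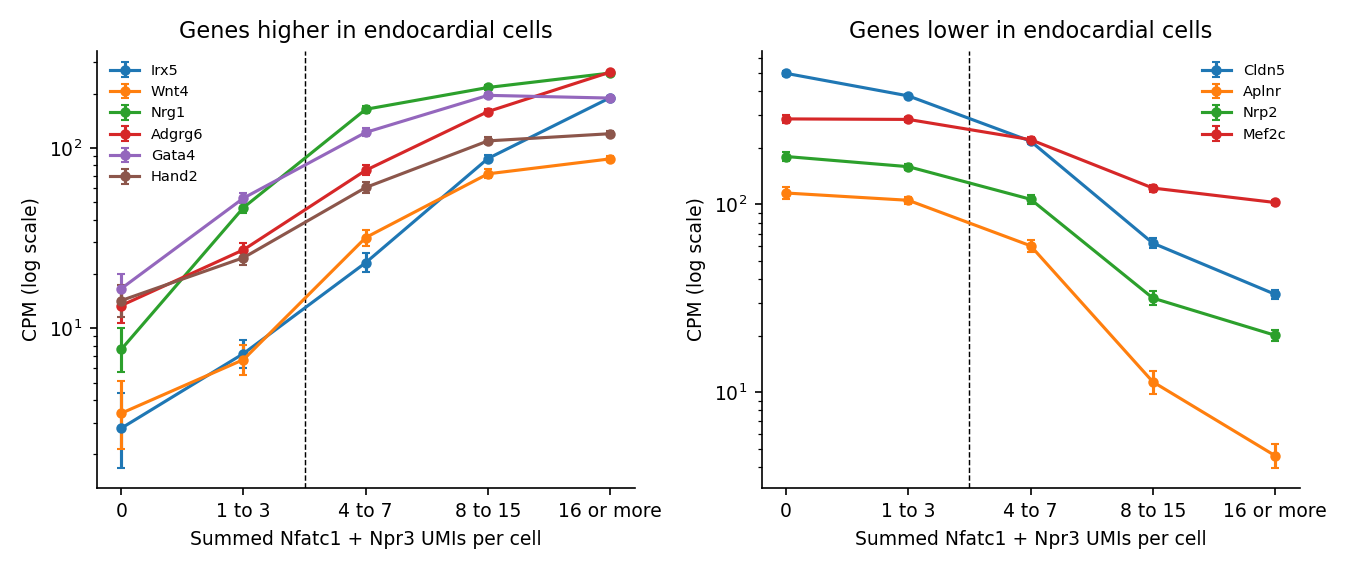
Levels in CPM on log scales of 6 genes higher (left) and 4 genes lower (right) in endocardial cells, in endothelial cells grouped by their sum of Nfatc1 and Npr3 UMIs (horizontal axis); points are pooled levels, bars their exact 95% counting intervals, and the dashed line the threshold. Irx5 goes from 2.79 CPM at a sum of 0 to 189.9 CPM at 16 or more, and Cldn5 from 499.7 to 33.2 CPM.

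The subclusters showed how endocardial cells varied among themselves. They are given by number and leading genes, and since each was cut from the same genes, differences between them are descriptions. Subclusters 1, 2, 4, 5 and 7 (111, 138, 236, 279 and 107 cells) shared high Irx5, at 241, 214, 221, 201 and 281 CPM, and high Cdkn1c. Their differences followed in part the cell cycle, with Top2a at 311, 778, 122, 79.2 and 735 CPM. Subclusters 2 and 4 had less Wnt4, at 18.9 and 26.5 CPM against 109.7, 103 and 87.9 CPM in subclusters 1, 5 and 7. They also had more Bmx, at 100.4 and 109 against 28.7, 35.0 and 29.1 CPM, and more Fn1, at 1458 and 1421 against 859.9, 753 and 820.1 CPM. Corin (133 CPM) and Hs3st4 (129 CPM) were among the leading genes of subcluster 4.

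Subcluster 3 (240 cells, 16.1%) was led by Igfbp7, Thbs1, Cdo1, Ano1 and Bmper, and its next genes included Vcan and Sox9. Vcan, the proteoglycan versican of the cardiac jelly, was at 482 (468 to 495) CPM there and at 6.50 to 32.9 CPM in subclusters 1, 2, 4, 5, 6, 7 and 10. Sox9, a transcription factor of cushion mesenchyme, was at 86.6 (81.0 to 92.4) CPM, Has2, the enzyme that makes hyaluronan, at 107 (100.4 to 113) CPM and Twist1 at 181 (172 to 189) CPM. Not all genes of the cushion list were high there. Postn was at 13.8 CPM, against 14.1 to 35.7 CPM in subclusters 1, 2, 4, 5 and 7. Pdgfrb was at 9.29 CPM, against 9.59 to 15.97 CPM in the same subclusters. Col3a1, at 203 CPM, was above subclusters 2 and 4 (151 and 149 CPM). It was below subclusters 1, 5 and 7 (334, 304 and 369 CPM). Subcluster 3 had Tbx20 at 821 (803 to 839) CPM, Gata4 at 463 (450.3 to 477) CPM, Hey2 at 65.1 (60.2 to 70.2) CPM and Klf2 at 773 (756 to 790.3) CPM. Nfatc1 was at 195 CPM against 21.9 to 114 CPM in the other subclusters, while Npr3 was at 146 CPM. Irx5 was at 9.88 (8.05 to 11.99) CPM, far under subclusters 1, 2, 4, 5 and 7, and Wnt4 at 192 (184 to 201) CPM. This subcluster made up 16.8, 16.9, 11.1, 16.2, 16.5 and 15.3% of the endocardial cells of libraries 1 to 6.

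Subcluster 6 (221 cells) had a median sum of Nfatc1 and Npr3 of 7, against 16 over all endocardial cells. Most genes that led the endocardial class were low in it, with Irx5 at 3.35 (2.32 to 4.68) CPM, Wnt4 at 1.08 (0.541 to 1.94) CPM, Gata5 at 3.84 (2.73 to 5.25) CPM, Tbx20 at 3.84 (2.73 to 5.25) CPM and Nrg1 at 25.5 (22.5 to 28.8) CPM. Vessel genes were high in it, with Gja4 at 524 (509.7 to 538) CPM, Gja5 at 85.9 (80.3 to 91.8) CPM, Cldn5 at 355 (344 to 367) CPM and Dll4 at 54.2 (49.7 to 58.9) CPM. In other endothelial cells Cldn5 was at 414 CPM and Gja5 at 4.27 CPM. Irx5 was at 5.96, Wnt4 at 5.75, Gata5 at 9.80 and Nrg1 at 35.4 CPM in other endothelial cells. Subcluster 6 was thus below that class in these leading genes, although its cells met the rule. Subcluster 6 made up 9.17, 14.2, 5.98, 22.5, 20.9 and 19.9% of the endocardial cells of libraries 1 to 6, lowest in library 3 and above 19% in libraries 4 to 6. Subcluster 10 (55 cells) was led by Gsg1, Hoxa5, Oit3, Bmp4 and Hs6st3. It had Irx5 at 1.16 (0.316 to 2.97) CPM and Aplnr at 75.6 (66.7 to 85.3) CPM, but Gata4 at 181 (167 to 196) CPM and Nrg1 at 204 (189 to 219) CPM, and its median sum was also 7.

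Subclusters 8 and 9 carried markers of other cell types beside the endothelial genes. The 8 epithelial markers summed to 1239 CPM in subcluster 8, against 46.4 CPM over all endocardial cells and 482 CPM in non-endothelial cells. The 10 cardiomyocyte markers summed to 4063 CPM in subcluster 9, against 589.7 CPM over all endocardial cells and 5557 CPM in non-endothelial cells. Tnnt2, cardiac troponin T, was at 369.6 (355 to 385) CPM and Myl7, an atrial myosin light chain, at 881 (858 to 904) CPM. The endocardial genes stayed at intermediate levels, with Irx5 at 86.9 and 95.9 CPM. Their higher UMI medians and doublet scores are given above, and whether these are mixed barcodes was not tested.

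**Figure D5:**
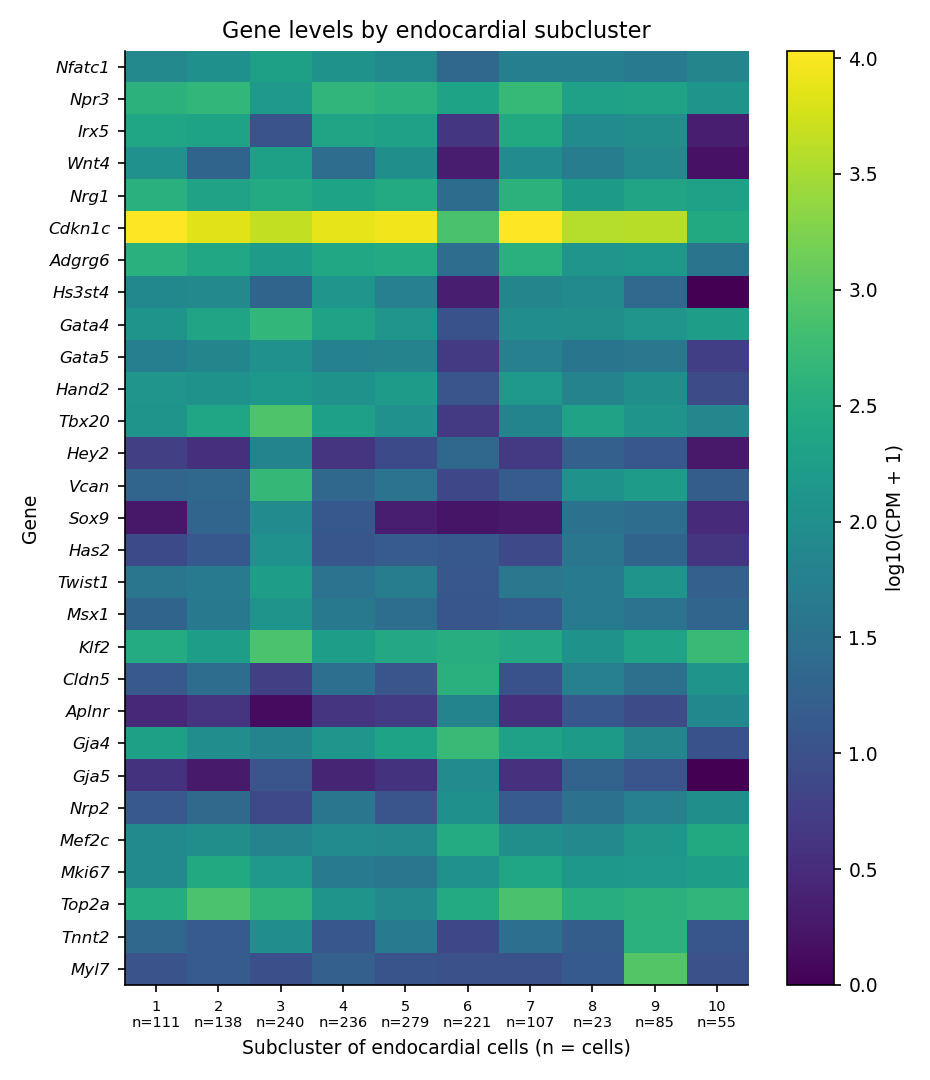
Levels of 29 genes (rows) in the 10 subclusters of endocardial cells (columns, with the number of cells), as the base-10 logarithm of CPM plus 1 on the colour scale. Subcluster 3 stands out in Vcan, Sox9, Has2 and Tbx20, subcluster 6 in Cldn5, Gja4 and Gja5 with low Irx5 and Wnt4, and subcluster 9 in Tnnt2 and Myl7.

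Between libraries, most genes held their level in endocardial cells. Of 3544 genes at 50 CPM or more, sex-linked genes aside, the highest library was a median of 1.19 times the lowest, and 50 genes differed by more than 2-fold. The 13 genes past 4-fold included Actc1, Myl7, Myl4 and Acta2 of heart and smooth muscle and 5 haemoglobin genes. Actc1 was at 115, 41.0, 3.00, 178, 368 and 7.14 CPM in libraries 1 to 6 and Myl7 at 122, 66.3, 7.13, 74.1, 194 and 15.2 CPM, and most of this RNA sat in subcluster 9. Nppa, the atrial natriuretic peptide gene, was at 3.599, 1.01, 0.939, 101, 181 and 3.07 CPM in the same order, high in libraries 4 and 5. Outside subcluster 9 it was at 1.34 CPM over all libraries. Igf2, a growth factor gene expressed from the paternal copy, was at 1298, 1192, 1455, 727, 643 and 799.7 CPM, with libraries 1 to 3 all above libraries 4 to 6, and in other endothelial cells at 641, 657, 582, 317, 305 and 352 CPM, split the same way. H19, expressed from the maternal copy of the same region, was at 1253, 1081, 1413, 1130.4, 1047 and 1266 CPM without that split. Other RNAs split the libraries as Igf2 did, Cdkn1c (above) among them, in endocardial, other endothelial and non-endothelial cells alike. Gm42418, a predicted gene, was at 1449, 1635, 2396, 654, 498 and 614 CPM in the endocardial cells of libraries 1 to 6. Hist1h1b, a linker histone gene, was at 433, 525, 442, 118, 118 and 137 CPM, and Hist1h2ap and Hist1h1e were also higher in libraries 1 to 3. Their part in the Igf2 values was not tested. These genes were picked after their values were seen, which treatment each library had is unknown, and the spread was not tested.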

How the data were processed

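Single-cell RNA was measured in 6 samples, 3 per treatment. Per the file headers, the deposited matrix of UMI counts came from Cell Ranger 5.0.0, and the authors kept it as raw whole numbers. The submitters' processing notes also name CASAVA 1.8, Seurat 4 and mm10. Alignment settings, the annotation and the calling of cells were not given in the sources used here. The labels' descriptions name a chromatin assay, but titles, library source and kit name RNA, and the values were treated as RNA counts. Coordinates are those of GENCODE M21 on mm10, in which 32158 of 32285 gene identifiers were found.

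Cells were chosen by the rule in the text. Counts were summed per class and library and scaled to CPM, with exact Poisson intervals for levels and binomial-based ones for ratios and shares, all covering counting error only. A gene was counted with at least 10 CPM in the higher class, a pooled ratio of at least 2 and the same direction in every library with at least 10 cells in both classes. This step was tested on simulated data. Doublet scores came from Scrublet in scanpy 1.11.5, with 0.8% of barcodes per 1000 cells marked in each library; marked cells stayed in except in the alternative without them. Subclusters used 2000 variable genes, 20 components, 15 neighbours and the Leiden method at resolution 0.5 (igraph 0.11.9), with no correction between libraries.

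The rule of the class uses measured values, barcode suffixes are paired with no sample, and the test of STZ against vehicle that had been laid out was not run. The members and the 25 gene lists were chosen with earlier results of these data known. Named genes are the 8 rule genes, the 15 highest and 15 lowest ratios at 20 CPM or more against other endothelial cells, the 10 highest at 50 CPM or more against non-endothelial cells, the up to 4 largest ratios of each list, and the leading genes of subclusters. Other genes of the lists, and Nppa, Npr1, Npr2, Igf2, H19, Gm42418, the histone genes and the sex-linked genes, were named after their values were seen. Alternatives covered the rule's thresholds, depth, doublets, shared barcodes, marker genes of other types, the CPM minimum and each library left out.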

Additional observations from a re-analysis of the deposited data

How the results depend on the processing

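Of 7 main results (the number and share of endocardial cells, 4 counts of genes and the number of subclusters), 108 of 125 values under an alternative setting stayed within the spread allowed for them. The number of cells was between 1048 and 1378 with a library left out, and the share of endothelial cells between 69.9% without library 1 and 75.9% without library 5. The share was 84.5% with a threshold sum of 2, 59.4% with a sum of 8 and 70.5% with 3 of 6 endothelial genes required. Thinning each cell to 5000 UMIs before the rule left 59 cells and 14.9%, since the rule counts raw UMIs. With a library left out, genes higher and lower than in other endothelial cells numbered 310 to 336 and 135 to 163, and higher and lower than in non-endothelial cells 912 to 941 and 858 to 874. With no CPM minimum these 4 counts were 814, 380, 1778 and 5945, and with a minimum of 50 CPM 145, 47, 423 and 208, as more or fewer genes were tested. Without subclusters 6, 8, 9 and 10, an alternative chosen after seeing the data, 315 genes were lower. Resolution 0.3 gave 6 subclusters, resolution 1 gave 15, and leaving out a library gave 7 to 10.

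Of 90 named genes past 2-fold against other endothelial cells, 3 changed direction under any of up to 26 alternatives: Gja5, with a ratio of 0.945 without subclusters 6, 8, 9 and 10, and, without subcluster 3, Has2 at 0.973 and Bmper at 0.795. Leaving out subcluster 3 was also chosen after seeing the data. All these subclusters were left out of the endocardial class only, so ratios of genes high in them had to fall. The 90 genes include the rule genes Nfatc1 and Npr3, which divided the classes. Medians of marker lists were less steady. The erythroid list's median log2 ratio of 0.16 was -0.14 with 3 of 6 endothelial genes, -0.43 with 5 of 6, -2.41 without shared barcodes, -0.47 against cells with a sum of 0 and -0.11 in cells with 15000 to 45000 UMIs, and ran from -0.52 without library 5 to 1.12 without library 1. The myeloid and megakaryocyte median of -3.62 was 0.70 with 5 of 6 endothelial genes and 1.30 without other endothelial cells with 5 or more Pf4 UMIs. The smooth muscle and pericyte median of -0.52 was 1.13 without doublet-marked cells, 0.17 in cells with 15000 to 45000 UMIs and 0.51 without cells rich in other types' markers, where the cardiomyocyte median of -1.06 was 0.40. The causes were not tested. No paired analysis was possible because the matrix columns carry no replicate number of the labels; the 2 cell classes were compared within each library. Depth limits what can be read for genes under 10 CPM, and the spread between the 6 libraries cannot be assigned to embryos or treatments.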

Other observations

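The 1227 non-endothelial cells with a sum of Nfatc1 and Npr3 of at least 4 had a median of 0 of the 6 endothelial genes at 2 or more UMIs, and 933 of them carried Npr3 alone. Pf4, the platelet factor gene, was at 5.13 CPM in endocardial cells, where 1 cell held 171 of 355 UMIs, and at 1.75, 2.49, 2389, 322, 778 and 305 CPM in the other endothelial cells of libraries 1 to 6. Clec1b, a receptor of platelets, liver sinusoidal cells and some embryonic endothelium, was at 38.4 against 185 CPM, 4.83-fold lower (4.60 to 5.07), and its libraries did not overlap between the classes. Plek, a protein of blood cells, was at 1.60 against 23.2 CPM. Cx3cr1, a chemokine receptor listed as a myeloid marker, went the other way, at 14.1, 15.5 and 19.3 CPM in endocardial and 3.51, 4.28 and 6.73 CPM in other endothelial cells (lowest, median and highest library), a ratio of 3.12 (2.58 to 3.7997), while Tyrobp of the same list was at 0.144 against 0.296 CPM. Elavl4, listed as a neuronal marker, was at 13.5 against 6.63 CPM, a ratio of 2.04 (1.72 to 2.43). That ratio was 1.37 without subcluster 3, whose 8 neuronal markers summed to 281 CPM, 1.88 with a threshold sum of 8 and 1.62 in cells with 15000 to 45000 UMIs.

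Clustering again without the genes of cell division gave 8 subclusters, with an adjusted Rand index of 0.749 against the 10. Over the alternatives, the best overlap of subcluster 6 with a new one had a median Jaccard index (shared cells over all cells of either) of 0.925, that of subcluster 9 0.985 and that of subcluster 3 0.885, whereas that of subcluster 1 was 0.380. Thus the split into subclusters 3, 6 and 9 came back in most settings, and the borders among subclusters 1, 2, 4, 5 and 7 moved more. Subclusters 8 and 10 had medians of 0.909 and 0.734. Their lowest values were 0.175 and 0.131, so they did not come back in every setting.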
